A study of Mus musculus with 6 samples.

Results

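The genes described here are 35 genes of the B cell and pre-B cell program, taken by symbol from a list: regulators that commit progenitors to the B lineage, the recombinase, the surrogate and conventional immunoglobulin light chains, the signal chains of the B cell receptor, the kinases and adaptors beside it, and surface proteins of B cells. All 35 were found among the 19846 genes of the deposited table. RNA had been measured in hematopoietic stem cells sorted as CD34-/LSK cells (lineage-negative, Sca-1+, c-Kit+) from bone marrow of untreated C57BL/6 mice, either wild type (WT) or lacking CD74 (CD74-/-), at 6 to 8 weeks of age. The labels give 3 replicate libraries per genotype, each of 1000 cells. CD74 is missing from every cell of the CD74-/- animals, so that an effect in the stem cells and an effect of their surroundings cannot be told apart. The question was how HSCs with and without CD74, the invariant chain of MHC class II and a receptor for MIF, differ in their RNA, and here it is asked of the B cell genes.

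B cells arise from lymphoid progenitors in which EBF1 and PAX5, acting with E2A, switch on the B lineage genes and close off other fates. RAG1 and RAG2 then rearrange the heavy chain locus, and the new heavy chain is displayed with a surrogate light chain, made of VpreB and the product of Igll1, as the pre-B cell receptor. A conventional kappa or lambda light chain replaces it later, and CD79A and CD79B carry the signal of both receptors into the cell through SYK, LYN, BLK, BTK and the adaptor BLNK. Stem cells are not known for these receptors, and the lineage gate of the study included B220, a surface protein of most B lineage cells.

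Promoters are shown for 5 members, chosen after their values were seen. Each had a mean under 0.25 of WT in CD74-/- libraries. They represent the called gene, the genes grouped as surrogate light chain (Vpreb3 among them) and a signal chain. They are RefSeq windows on GRCm38.p6 from 250 bases before to 50 bases after the annotated start, printed 5′ to 3′ on the strand of the gene. Capitals mark matches on either strand to 4 motifs: CCCNNGGG (EBF1), CAGGTG (the E-box of E2A), ATGCAAAT (the octamer of the OCT factors that POU2AF1 binds) and GAGGAAGT (PU.1 and SPIB). The windows are chr1:170927534-170927833 (minus strand) for Fcrla, chr16:16863936-16864235 (minus) for Igll1, chr16:16869206-16869505 (minus) for Vpreb1, chr10:75948050-75948349 (plus) for Vpreb3 and chr7:24897247-24897546 (plus) for Cd79a.
Fcrla: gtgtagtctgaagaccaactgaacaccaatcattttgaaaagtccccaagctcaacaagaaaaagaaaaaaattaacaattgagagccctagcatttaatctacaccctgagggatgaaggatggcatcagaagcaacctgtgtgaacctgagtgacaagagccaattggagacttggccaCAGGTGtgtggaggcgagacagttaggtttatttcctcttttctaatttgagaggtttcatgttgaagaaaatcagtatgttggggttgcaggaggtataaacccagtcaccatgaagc
Igll1: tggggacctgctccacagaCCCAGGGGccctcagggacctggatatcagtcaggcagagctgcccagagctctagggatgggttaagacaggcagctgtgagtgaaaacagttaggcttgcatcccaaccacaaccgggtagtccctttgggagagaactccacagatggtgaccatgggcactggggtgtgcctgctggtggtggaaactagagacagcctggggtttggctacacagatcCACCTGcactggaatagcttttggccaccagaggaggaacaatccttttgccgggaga
Vpreb1: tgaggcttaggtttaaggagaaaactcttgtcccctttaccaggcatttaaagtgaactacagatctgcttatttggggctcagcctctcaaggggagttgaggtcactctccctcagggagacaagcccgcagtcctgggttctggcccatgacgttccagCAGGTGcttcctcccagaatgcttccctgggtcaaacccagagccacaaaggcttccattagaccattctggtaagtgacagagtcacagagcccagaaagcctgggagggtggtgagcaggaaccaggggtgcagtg
Vpreb3: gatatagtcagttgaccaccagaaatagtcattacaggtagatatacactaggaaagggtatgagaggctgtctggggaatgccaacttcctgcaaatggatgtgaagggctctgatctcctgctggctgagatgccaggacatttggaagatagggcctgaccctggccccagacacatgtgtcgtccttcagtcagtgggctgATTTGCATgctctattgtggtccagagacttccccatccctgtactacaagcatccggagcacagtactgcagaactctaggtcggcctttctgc
Cd79a: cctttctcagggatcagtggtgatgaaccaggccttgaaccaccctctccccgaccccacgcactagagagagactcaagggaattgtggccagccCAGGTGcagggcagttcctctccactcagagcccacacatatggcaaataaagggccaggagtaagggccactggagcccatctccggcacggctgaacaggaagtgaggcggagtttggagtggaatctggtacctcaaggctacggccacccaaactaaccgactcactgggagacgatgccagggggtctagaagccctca

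The E-box began 69 bases before the start of Fcrla, 8 before that of Igll1, 88 before that of Vpreb1 and 154 before that of Cd79a, and the octamer 45 bases before that of Vpreb3, on the other strand. The EBF1 motif of Igll1 lay 231 bases before the start. Windows were found for 25 of the 35 members, and where RefSeq gives several starts the window listed first was used. The E-box was in 13 of these 25 windows (52.0%) and in 20.0% of the windows of all 27025 genes. In the stretch from 100 bases before to 50 after the start it was in 4 of 25 (16%), against 10.3%. The EBF1 motif was in 4 windows (16% against 13.4%), the octamer in 2 (8.0% against 1.75%) and the PU.1 and SPIB core in 2 (8.0% against 3.28%). The windows with the PU.1 and SPIB core belonged to Cd37 and Cd72. Each printed window held a match, but those of Ebf1, Pax5, Pou2af1, Lef1, Pou2f2, Bach2, Rag2, Btk and Fcer2a held none. E-box windows belonged to Bank1, Blnk, Cd22, Fcrla, Igll1 and Vpreb1, whose CD74-/- libraries were all below the WT libraries. They also belonged to Cd37, Cd79a, Cr2, Rag1, Ralgps2, Syk and Vpreb2, whose genotypes overlapped. No motif overlapped a match to another motif, and a match is only a description of the letters.

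The 6 libraries held between 14390534 and 16198678 reads in genes, and the totals of the genotypes overlapped. Genes with any read numbered 17062 to 17376 in WT and 16383 to 16630 in CD74-/- libraries, so that every CD74-/- library detected fewer genes, and the part of this in the members at 0 reads was not tested. Values are normalized counts, which are reads divided by the size factor of the library. The target of the deletion behaved as labeled, with Cd74 at 3287, 2459 and 3107 in WT and at 46.0, 72.0 and 72.8 in CD74-/- libraries. The stem cell genes Kit and Ly6a overlapped between the genotypes. Kit had 10724 to 11536 in WT and 7458 to 15380 in CD74-/- libraries, and Ly6a (Sca-1) had 9924 to 13228 and 11967 to 14074. Cd34, whose protein was used in the sort, differed from these: its RNA was present although the cells were gated as CD34-, at 5240 to 6834 in WT and 7097 to 11830 in CD74-/- libraries, which did not overlap. Its log2 fold change was 0.59 (limma unadjusted p = 0.0269, adjusted p = 0.588). Of the 13 genes in the stem cell list it was the 1 that was higher at an unadjusted p under 0.05. The study used CD34 to set stem cells (CD34-) apart from progenitors (CD34+), so Cd34 does not mark the stem cells here.

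Regulators, surrogate light chains and kappa light chain of the B lineage were mostly lower in CD74-/- than in WT HSC libraries. The 3 CD74-/- libraries were all below the 3 WT libraries for 5 of 7 transcription factors and for 2 of 4 light chain constant regions. The same held for each of the 3 tested genes grouped as surrogate light chain (Igll1, Vpreb1 and Vpreb3). It also held for 3 of 6 kinases and adaptors, for 2 of 8 surface proteins and for Fcrla. The genotypes overlapped for both recombinase genes and both signal chains. A log2 fold change of CD74-/- over WT was computed with limma on log2(normalized count + 1), for genes whose normalized count averaged 10 or more over the 6 libraries. Of the 35 members 34 passed this filter, all but Vpreb2, and 8 of the 34 had a mean under 10 in CD74-/- and so passed through the WT libraries alone. The log2 fold change was negative for 31 and positive for 3 (Btk, Cd72 and Cd37). Its median was -2.73, beside -0.03 for all 14892 genes tested, of which 52.3% were negative. By ratio of means, 18 of the 35 members were under 0.25 of WT, 3 were between 0.25 and 0.5, and 14 were between 0.5 and 2.

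Few members passed a test over all genes. At an adjusted p under 0.05 (Benjamini-Hochberg over all genes), limma called 1 member lower, Fcrla, and 0 higher, where it called 0.047% of all genes lower and 0.0403% higher. Before adjustment, 18 members were lower at p under 0.05, against 4.6% of all genes, and 0 were higher, against 3.14%. With edgeR on the recovered reads 1 member was called lower, again Fcrla (0.0415% of all genes), and with DESeq2 under the study's settings 6 were (Ebf1, Pax5, Spib, Lef1, Blk and Fcrla; 0.505% of all genes). All 3 CD74-/- libraries lay below all 3 WT libraries for 16 members, against 7.47% of all genes, and all lay above for 0 members, against 5.35%. The 8 members that passed the filter through the WT libraries alone (Pax5, Pou2af1, Spib, Lef1, Iglc3, Blk, Cd22 and Fcrla) are all among these 16. Every member called above except Ebf1 is also 1 of those 8. The members were chosen with earlier results of these data known, so these counts and shares are only a description. An exact permutation test of a single gene cannot go below p = 0.1 with 3 libraries against 3. Each of those 16 members had that p. Fewer cells of the B lineage in the sorted sample and less RNA per cell cannot be told apart in bulk libraries, and p-values measure the spread between the libraries, of which the labels do not say whether each is 1 mouse.

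**Figure D1:**
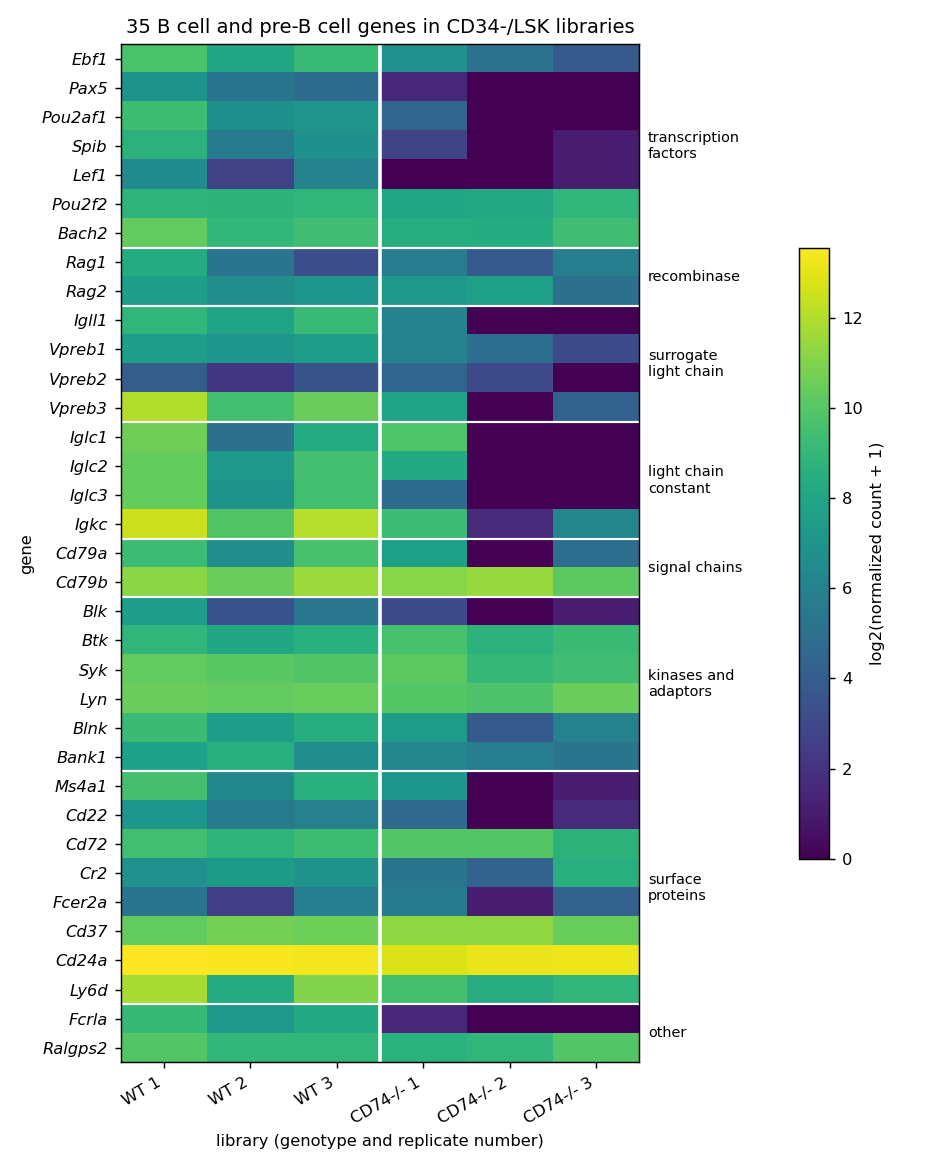
Color gives log2(normalized count + 1) of each of the 35 genes (rows, grouped by role) in each of the 6 libraries (columns). Dark cells, at or near 0, are concentrated in CD74-/- replicates 2 and 3, where 14 and 7 of the 34 tested members had 0 reads, while no WT library had a member at 0.

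Among the WT libraries, replicate 1 was the highest for 26 of the 34 tested members, against 37.9% of all genes. Replicate 2 was the lowest WT library for 26, for which the share over all genes was not computed. Among the CD74-/- libraries, replicate 1 was the highest for 24 of 34, against 28.9% of all genes. The 12 neutrophil genes fixed as markers summed to 991376, 158020 and 238901 in WT replicates 1 to 3 and to 149238, 31614 and 52690 in CD74-/- replicates 1 to 3. The neutrophil genes were thus also highest in replicate 1 of each genotype. Of the 12, 11 were lower at an unadjusted p under 0.05 in limma (median log2 fold change -2.60), against 4.6% of all genes. Of 11 tested erythroid genes, 7 were lower on that measure (median -3.08), and limma called Hba-a2 and Hbb-bs after adjustment. Sums of the erythroid genes were 59094, 46890 and 39051 in WT and 30192, 39183 and 25188 in CD74-/- libraries. Of these sums Car2 alone held 20042, 27309 and 27332 in WT and 26111, 37613 and 22933 in CD74-/- libraries. By single gene, 8 of the 11 were highest in replicate 1 among the WT libraries. Among the CD74-/- libraries 9 of the 11 were highest in replicate 1. Of 12 monocyte genes, 6 were lower (median -1.63), with sums of 47358, 27614 and 30096 in WT and of 38626, 17375 and 9710.1 in CD74-/- libraries. The 13 genes of the stem cell list, Cd34 among them, had a median of -0.19. They summed to 52577, 59720 and 65563 in WT and to 48583, 55615 and 70125 in CD74-/- libraries. The part of such cells in the B cell values was not tested. The lineage gate of the study, with antibodies to CD11b, Gr-1, CD3, B220 and Ter119, is meant to remove mature cells of these kinds.

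**Figure D2:**
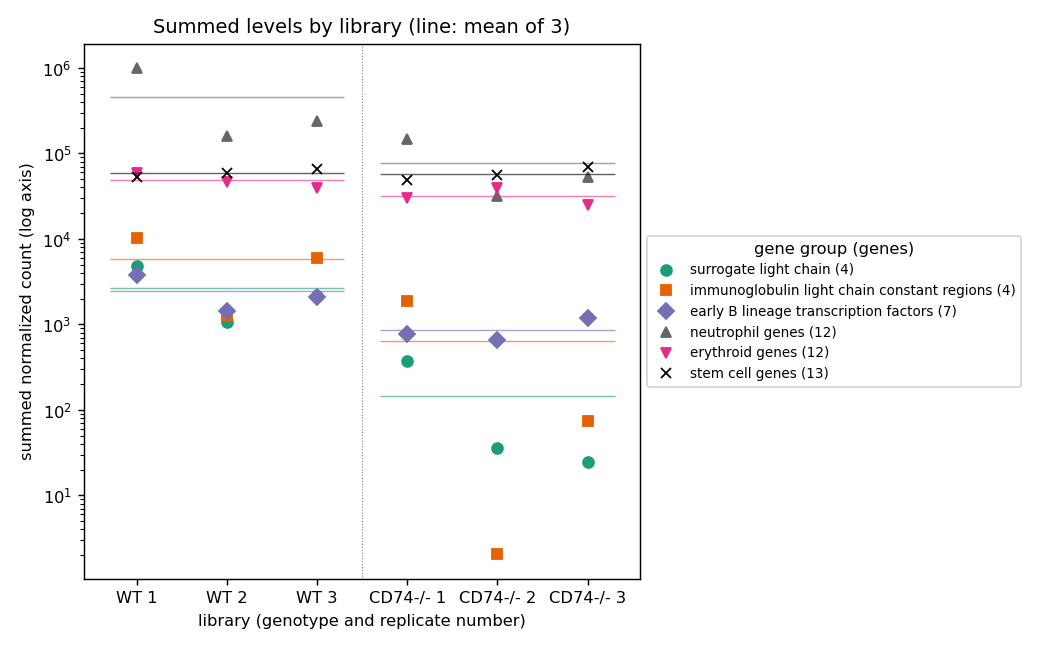
Summed normalized counts (log axis) of 3 groups of members and 3 marker lists in each library, with a horizontal line at the mean of 3 libraries. Surrogate light chain genes ran from 1076 to 4777 in WT and from 24.6 to 376 in CD74-/- libraries. Without Vpreb3, which is grouped with them, they ran from 369 to 777 and from 7.17 to 151. Neutrophil genes were highest in replicate 1 of both genotypes, and stem cell genes stayed between 48583 and 70125.

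The transcription factors divided into 5 with much lower counts in CD74-/- libraries and 2 without. Ebf1 (ENSMUSG00000057098; chr11:44617317-45008091), the pioneer factor of B lineage commitment, had normalized counts of 848, 269.7 and 589 in the WT libraries and of 115, 34.5 and 13.3 in the CD74-/- libraries. The genotypes did not overlap, and the highest CD74-/- library was replicate 1. Ebf1 had a log2 fold change of -3.72 (SE 0.744), and its adjusted p was 0.199 in limma and 1.8e-04 in DESeq2, so that the call depends on the tool. Pax5, which maintains B cell identity, had 123, 35.8 and 25.5 in WT and 1.96, 0 and 0 in CD74-/- libraries. The pooled reads of Pax5 were 182 and 2, an 87.4-fold difference with a 95% counting interval of 23.9 to 727, which covers counting error only. Pou2af1, the coactivator of the OCT factors in B cells, had 642, 113 and 132 in WT and 20.5, 0 and 0 in CD74-/- libraries (log2 fold change -6.26 with SE 1.31, limma adjusted p = 0.244). Without WT replicate 1 its WT mean was 123 in place of 296.

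Spib and Lef1 had the same order of genotypes. Spib, an ETS factor of B cells and plasmacytoid dendritic cells, had 415, 49.3 and 109.8 in WT and 5.87, 0 and 1.02 in CD74-/- libraries. At a log2 fold change of -5.78, Spib had an adjusted p of 0.199 in limma and 2.5e-06 in DESeq2. Lef1, an effector of Wnt signaling in pro-B cells that T cells also use, had 91.0, 5.38 and 65.3 in WT and 0, 0 and 1.02 in CD74-/- libraries. Pooled reads of Lef1 were 160 and 1, a 154-fold difference with a 95% counting interval of 27.2 to 6107. WT replicate 2, with 6 reads of Lef1, was close to the CD74-/- libraries. Over all alternatives the highest adjusted p was 0.963 for each of Ebf1, Pax5, Spib and Lef1, and their lowest came from DESeq2. A predicted gene, Gm43352, overlaps exons of Lef1 and holds 13.7% of its 50-base transcript words together with other genes, and the library kit does not keep the strand.

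Pou2f2, which encodes OCT2, had 448, 438 and 485 in WT and 265, 291 and 487 in CD74-/- libraries, with overlap at replicate 3. Its log2 fold change was -0.45, with a 95% interval of -1.19 to 0.30 from limma. Bach2, a repressor active in lymphoid progenitors and B cells, had 1245, 508 and 669 in WT and 354, 338 and 674 in CD74-/- libraries (log2 fold change -0.80, 95% interval -1.70 to 0.10). For both genes CD74-/- replicate 3 was at the level of WT replicate 3. Neither passed limma, edgeR or DESeq2.

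The recombinase genes showed no such order. Rag1, the catalytic subunit, had 321, 35.8 and 8.51 in WT and 52.8, 13.2 and 55.3 in CD74-/- libraries. WT replicate 1 stood apart from the other 5 libraries, and without it the log2 fold change of -0.46 turned to 0.90. Rag2, its partner, had 193, 105 and 136 in WT and 149, 209.9 and 30.7 in CD74-/- libraries, so that the highest and the lowest library were both CD74-/-. The log2 fold change was -0.50 (95% interval -2.04 to 1.05, limma), and it turned to 0.33 without CD74-/- replicate 3. The 95% interval of Rag1 was wider, from -3.12 to 2.19, so that for Rag1 a difference of several fold in either direction lies inside it.

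The genes grouped as surrogate light chain had summed normalized counts of 4777, 1076 and 2169 in WT and of 376, 35.5 and 24.6 in CD74-/- libraries. The ratio of means was 0.0543. Vpreb3 made up most of the WT sums, and without it the sums were 696, 369 and 777 in WT and 151, 35.5 and 7.17 in CD74-/- libraries, a ratio of 0.105. Igll1 (ENSMUSG00000075370; chr16:16860671-16863985), which encodes the lambda-like chain, had 487, 229 and 573 in WT and 66.5, 0 and 0 in CD74-/- libraries. All 68 CD74-/- reads of Igll1 came from replicate 1. The log2 fold change was -6.62 (SE 1.44, limma adjusted p = 0.277). Without CD74-/- replicate 1 Igll1 was called (limma adjusted p = 0.0020). The CD74-/- libraries left in that fit were both at 0, so Igll1 passed the filter through the WT libraries alone. Vpreb1, the V-like chain and a neighbor of Igll1 on chromosome 16, had 194, 136 and 193 in WT and 63.6, 28.4 and 7.17 in CD74-/- libraries. Reads of Vpreb1 were found in every CD74-/- library, and its log2 fold change of -2.79 (SE 0.767, limma adjusted p = 0.504) stands beside -6.62 for Igll1, a difference that was not tested.

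Vpreb2, a near copy of Vpreb1, was at the edge of detection. It had 15.0, 3.58 and 10.4 in WT and 20.5, 7.10 and 0 in CD74-/- libraries, and it was not tested. Of the 50-base words of its transcripts, 32.8% also occur in Vpreb1, and 23.6% of those of Vpreb1 occur in Vpreb2 or Top3b, so reads of the pair can be split or lost between them. Vpreb3, which associates with immunoglobulin chains in the endoplasmic reticulum of B lineage cells, had the highest level of the 4 per kb of exon. It had 4082, 707 and 1393 in WT and 225, 0 and 17.4 in CD74-/- libraries, with no overlap. Its log2 fold change was -6.63 (SE 1.54, limma adjusted p = 0.324). Without WT replicate 1 the WT mean of Vpreb3 was 1050 in place of 2060, and leaving out CD74-/- replicate 1 took the CD74-/- mean from 80.8 to 8.71.

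**Figure D3:**
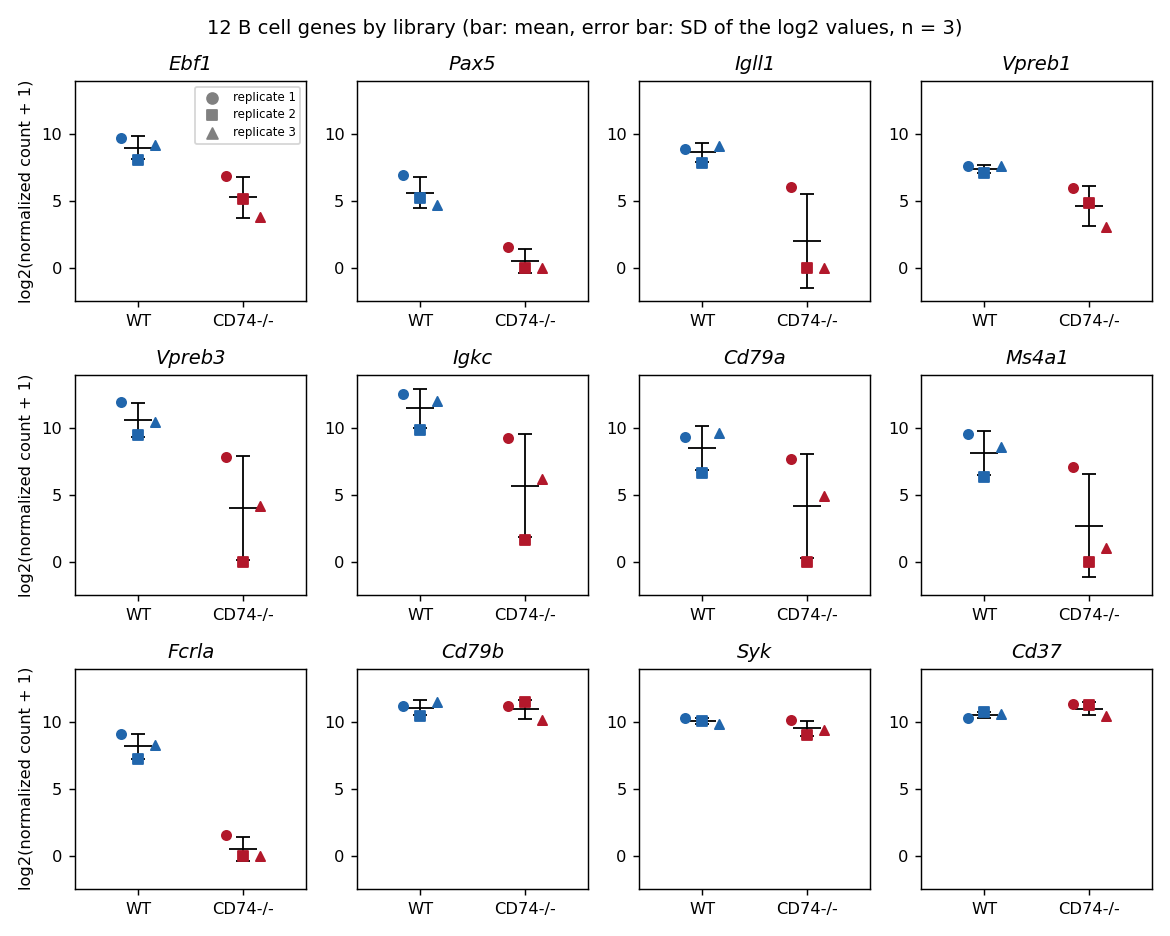
Points give log2(normalized count + 1) of 12 members in each library, with the mean and SD of 3 libraries per genotype. In Ebf1, Pax5, Igll1, Vpreb1, Vpreb3, Igkc and Fcrla every CD74-/- point lies below every WT point, in Cd79a and Ms4a1 CD74-/- replicate 1 reaches above WT replicate 2, and in Cd79b, Syk and Cd37 the genotypes overlap.

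The light chain constant regions had summed levels of 10233, 1243 and 5976 in WT and 1858, 2.03 and 73.8 in CD74-/- libraries. Igkc (ENSMUSG00000076609; chr6:70726435-70726966), the kappa constant region, had 6021, 927 and 4209 in WT and 621, 2.03 and 73.8 in CD74-/- libraries, which did not overlap. Its log2 fold change was -5.78 (SE 1.52, limma adjusted p = 0.453). The lambda constant regions had 0 reads in CD74-/- replicates 2 and 3, so that every CD74-/- read of Iglc1, Iglc2 and Iglc3 came from replicate 1. Iglc1 had 1571, 31.4 and 325 in WT and 901 in that library, above 2 of the WT libraries. Iglc2 had 1327, 163 and 729 against 310.1, above WT replicate 2. Iglc3 had 1314, 121 and 711 against 25.4, below all WT libraries.

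The 3 lambda genes thus differed within CD74-/- replicate 1, where Iglc1 had 921 reads, Iglc2 317 and Iglc3 26, while in WT replicate 1 they had 1468, 1240 and 1228 reads. The log2 fold changes were -4.72, -6.32 and -7.35, none of them past limma's adjusted threshold (adjusted p of 0.668, 0.517 and 0.156). Iglc3 shares 22.3% of its 50-base words with Iglc2 and 2010309G21Rik, and Iglc2 shares 7.65% with Iglc3, so the split of reads between these is uncertain, while Iglc1 shares none. Without WT replicate 1 the WT mean of Iglc1 was 178 in place of 643. Per kb of exon, a scale on which levels of genes can be compared, the WT mean level was 6991 normalized counts for Igkc, 2399 for Vpreb3, 199 for Igll1 and 145 for Vpreb1.

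The signal chains of the receptor had unlike values. Cd79a (Ig-alpha; ENSMUSG00000003379; chr7:24897381-24902197) had 638, 98.6 and 791 in WT and 206, 0 and 28.7 in CD74-/- libraries. The genotypes overlapped, because CD74-/- replicate 1 was above WT replicate 2. The log2 fold change of Cd79a was -4.33 (SE 1.61, limma adjusted p = 0.583). Cd79b (Ig-beta), its obligate partner in the receptor, had 2398, 1422 and 2960 in WT and 2293, 2870 and 1152 in CD74-/- libraries. The log2 fold change of Cd79b was -0.14, with a 95% interval of -0.97 to 0.69. Per kb of exon, the mean level of Cd79b was 1579 in WT and 1471 in CD74-/-, and that of Cd79a was 349 and 53.8. CD74-/- replicate 2 had 0 reads of Cd79a and 2831 of Cd79b. A predicted gene, Gm32220, holds 8.31% of the words of Cd79a.

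Of the 6 kinases and adaptors, Blk, Blnk and Bank1 were lower in every CD74-/- library than in every WT library, and Btk, Syk and Lyn overlapped. Blk, a Src family kinase of B cells, had 192, 9.86 and 38.8 in WT and 6.85, 0 and 1.02 in CD74-/- libraries. At a log2 fold change of -4.12, Blk had an adjusted p of 0.563 in limma and 0.0437 in DESeq2, and without WT replicate 1 the WT mean was 24.3 in place of 80.1. Blnk, the adaptor that links SYK to BTK and phospholipase C, had 613, 192 and 349 in WT and 183, 13.2 and 60.5 in CD74-/- libraries (log2 fold change -2.67, limma adjusted p = 0.519). CD74-/- replicate 1 came close to WT replicate 2 for Blnk. Bank1, a scaffold of B cell receptor signaling, had 215, 378 and 104 in WT and 75.3, 54.7 and 36.9 in CD74-/- libraries (log2 fold change -1.91, limma adjusted p = 0.517). Bank1 was the only member with its highest value in WT replicate 2.

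Syk, Lyn and Btk are also used by myeloid cells. Syk had 1285, 1106 and 936 in WT and 1150, 523 and 675 in CD74-/- libraries (log2 fold change -0.57, 95% interval -1.28 to 0.15). Lyn had 1403, 1247 and 1343 in WT and 1028, 862 and 1436 in CD74-/- libraries (-0.30, 95% interval -0.87 to 0.28). Btk, whose loss arrests B cells, had 485, 278 and 385 in WT and 778, 425 and 607 in CD74-/- libraries. With a log2 fold change of 0.65 (95% interval -0.12 to 1.42, limma adjusted p = 0.687) it had the highest log2 fold change of all members, and CD74-/- replicate 2 overlapped the WT range. Lyn shares 18.3% of its words with predicted genes.

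Of the 8 surface proteins, Cd22 and Cd24a did not overlap between the genotypes. Ms4a1, which encodes CD20, had 747, 79.7 and 383 in WT and 137, 0 and 1.02 in CD74-/- libraries, with CD74-/- replicate 1 above WT replicate 2. Its log2 fold change was -5.45 (limma adjusted p = 0.517), and it was called without CD74-/- replicate 1 (limma adjusted p = 0.0179). In that fit Ms4a1 passed the filter through the WT libraries alone, with the CD74-/- libraries at 0 and 1.02. Cd22, an inhibitory lectin of B cells, had 137, 48.4 and 58.7 in WT and 24.5, 0 and 2.05 in CD74-/- libraries, with no overlap (log2 fold change -4.12, limma adjusted p = 0.517). Ly6d, a surface marker of B lineage progenitors, had 3572, 329.7 and 2036 in WT and 763, 353 and 481 in CD74-/- libraries. WT replicate 2 was the lowest of all 6 libraries for Ly6d, and the log2 fold change was -1.40 (95% interval -3.00 to 0.20).

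The other surface genes showed no common order. Cr2, the complement receptor CD21 of mature B cells, had 117, 167 and 123 in WT and 38.2, 18.3 and 369.9 in CD74-/- libraries, with the highest value in CD74-/- replicate 3. Fcer2a (CD23) had 37.5, 4.48 and 54.9 in WT and 47.9, 1.01 and 18.4 in CD74-/- libraries. Cd72, a coreceptor of B cells, had 695, 454 and 649 in WT and 992, 979 and 430.4 in CD74-/- libraries, and 36.7% of its words lie in the overlapping gene Tesk1. Cd37, a tetraspanin of leukocytes, had 1254, 1709 and 1535 in WT and 2572, 2504 and 1367 in CD74-/- libraries (log2 fold change 0.47, 95% interval -0.16 to 1.11). In Cd37 and Cd72, CD74-/- replicates 1 and 2 were above all WT libraries, while replicate 3 was the lowest of the CD74-/- libraries. Cd24a, heat-stable antigen, which is found on many immature blood cells, had 12104, 10984 and 10285 in WT and 7352, 9146 and 9402 in CD74-/- libraries. The genotypes of Cd24a did not overlap, but the difference was small, with a log2 fold change of -0.37 (95% interval -0.79 to 0.04).

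Fcrla (ENSMUSG00000038421; chr1:170917576-170927583), an Fc receptor-like protein that B cells keep inside the cell, was the member that fell past the threshold in limma. It had 544, 149 and 309 in WT and 1.96, 0 and 0 in CD74-/- libraries. All WT libraries were far above all CD74-/- libraries, of which only replicate 1 held reads. Pooled reads were 1001 and 2, a 481-fold difference with a 95% counting interval of 133 to 3974. Fcrla had a log2 fold change of -7.68 (SE 0.952), and its adjusted p was 0.0133 in limma, 0.0169 in edgeR and 1.0e-10 in DESeq2. The limma call ended without WT replicate 1 (adjusted p = 0.482), WT replicate 2 (0.112) or WT replicate 3 (0.277), and when only genes averaging 50 or more were fitted (0.131), while all alternatives together spanned 1.0e-10 to 0.482. No other gene shares 50-base words with Fcrla. Ralgps2, an exchange factor of the Ral GTPases, had 965, 503 and 481 in WT and 409.9, 479 and 979 in CD74-/- libraries, and its log2 fold change was -0.09 (95% interval -0.99 to 0.81).

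**Figure D4:**
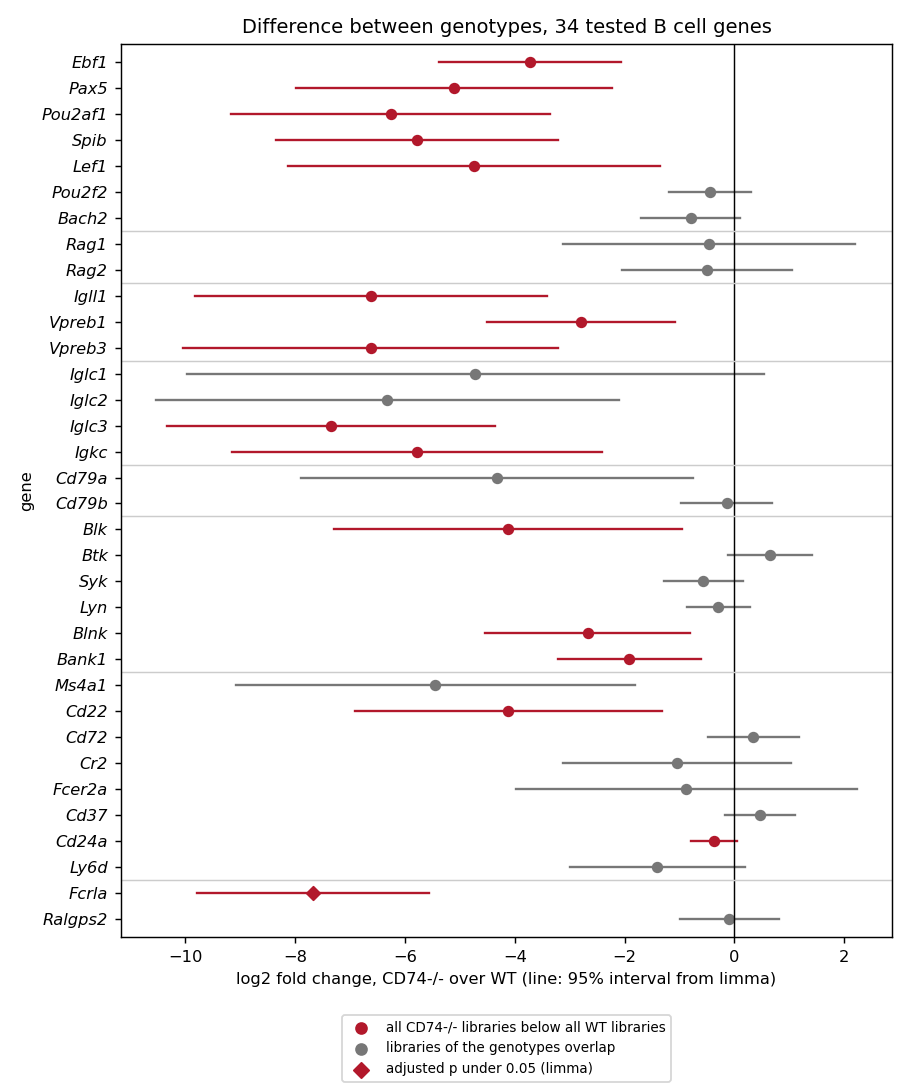
Log2 fold change of CD74-/- over WT with its 95% interval from limma for the 34 tested members. Red marks the 16 members whose genotypes did not overlap, and the diamond marks Fcrla at -7.68, the 1 member past the adjusted threshold. Cd79b, Syk, Lyn, Pou2f2, Bach2 and Ralgps2 lie between -0.80 and -0.09.

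The CD74-/- libraries were not alike. CD74-/- replicates 2 and 3 were both below all WT libraries for 21 of the 34 tested members, against 11.9% of all genes, and both held at most 2 reads for 12 members, against 2.22% of all genes. CD74-/- replicate 1 was above the lowest WT library for 13 of the 34 members and was not above it for the others. The share over all genes was not computed, so this count does not show that replicate 1 was like WT. Without CD74-/- replicate 1 limma called 9 members lower (Ebf1, Pou2af1, Igll1, Vpreb3, Iglc2, Iglc3, Igkc, Ms4a1 and Fcrla), where it called 34 of 14956 genes in all (0.227%). Of these 9, Pou2af1, Igll1, Iglc2, Iglc3 and Fcrla then had a CD74-/- mean of 0, Ms4a1 of 0.51 and Vpreb3 of 8.71. These members passed the filter of 10 through the WT libraries alone, so their calls are only a description. Limma called 0 members without WT replicate 1, 2 or 3, where it called 0.00676%, 0.0135% and 0.0269% of all genes lower. With 1 library left out the median log2 fold change of the tested members lay between -3.52 and -2.08. Neutrophil genes were also highest in CD74-/- replicate 1 among the CD74-/- libraries for 9 of 12. The same held for 11 of 12 monocyte genes and 9 of 11 erythroid genes.

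Genes of the B lineage outside the 35 were mixed. Of 25 further regulators and receptors 23 were tested, and limma called 0 after adjustment. Before adjustment 9 were lower at p under 0.05 and 0 higher, against 4.6% and 3.14% of all genes. The log2 fold change was negative for 17 of the 23, with a median of -0.81. All CD74-/- libraries were below all WT libraries for 7 and above for 1, against 7.47% and 5.35% of all genes. Ikzf3, the lymphoid factor Aiolos, had 136, 49.3 and 103 in WT and 0 reads in every CD74-/- library, which is at least 93.2-fold lower when 3 reads over the 3 libraries are taken as the floor. Ighd had 321, 221 and 246 in WT and 34.2, 66.9 and 76.8 in CD74-/- libraries. DESeq2 called Ikzf3 and Ighd among these genes. Ighm, the mu heavy chain, had 7434, 2951 and 3955 in WT and 3291, 2940 and 1658 in CD74-/- libraries (log2 fold change -0.81, with -5.78 for Igkc). Dntt, Bcl11a and Ikzf1, which lymphoid-primed progenitors use, were abundant in both genotypes, as with Dntt at 6939, 3697 and 3300 in WT and 6216, 5078 and 3514 in CD74-/- libraries.

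The signaling genes downstream of the receptor, which many blood cells share, had a median log2 fold change of -0.32 over 15 genes, with 0 called after adjustment and, before it, 0 lower and 1 higher (Stap1) at p under 0.05. Dapp1, Stap1, Ptpn6 and Plcg2 were found in every library. Jchain, of plasma cells, was at 9.46 to 74.4 in WT and 0 to 62.5 in CD74-/- libraries, and of 6 tested plasma cell genes Mzb1, which marginal zone B cells also use, was the 1 that DESeq2 called (936, 337 and 446 in WT against 141, 185 and 49.2). Siglech, of plasmacytoid dendritic cells, had 116, 1.79 and 127 in WT and 0 reads in CD74-/- libraries. The 8 tested genes of these cells had a median log2 fold change of 0.11, and 4 of them were negative. Summed over the list of 10, the means were 10460 in WT and 10444 in CD74-/- libraries. Most of this was Tcf4, Runx2 and Bst2, with means of 4597, 2436 and 1903 in WT and 4024, 2468 and 2299 in CD74-/- libraries. The sum therefore says little about low genes such as Siglech, with means of 81.4 and 0. Among 10 tested T and NK cell genes 0 had a p under 0.05 before adjustment, with Nkg7 at 3046 to 6587 in WT and 4856 to 11257 in CD74-/- libraries. Ly6g, which defines neutrophils, had 2001, 509 and 882 in WT and 187, 73.0 and 23.6 in CD74-/- libraries. Procr, of stem cells, had 963 to 1316 and 949 to 1138.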

How the data were processed

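RNA of CD34-/LSK cells from WT and CD74-/- mice was used, in 3 libraries per genotype with 1000 cells per library. The authors made SMART-Seq v4 libraries, which do not keep the strand, read them single-end on a HiSeq2500, trimmed them with cutadapt, aligned them with STAR (2.4.2a in the processing notes) to GRCm38 with Ensembl release 92, counted reads with htseq-count and scaled them with DESeq2. The deposited signal is 1 normalized count per gene and library, which the authors obtained by dividing reads by the size factor. All 101059 signals above 0, in the deposited table, were multiples of a step that is fixed in each library, with a tolerance of 0.006, which gave back the reads per gene (14390534 to 16198678 per library), and 257 of 19846 genes were at 0 throughout. The further tables of fold changes and p-values by the authors were not used.

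Genotypes were compared with limma 3.58.1 (trend, R 4.3.3) on log2(normalized count + 1), over 14892 genes that averaged 10 or more, with Benjamini-Hochberg adjustment over these genes and a threshold of 0.05. This count-like signal is not raw, so edgeR 4.0.16 and DESeq2 1.42.0 (the study's settings, without prior on fold changes, outlier cutoff or filter) on the recovered reads were alternatives. Other alternatives were pseudocounts of 0.5 and 5, no filter, a mean of at least 50, TMM scaling, the replicate block, each library left out and a shorter promoter window. The fits were tested on simulated data. A fold change on the log2(value + 1) scale understates changes of low genes.

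Coordinates and 50-base words shared between transcripts came from GENCODE vM21 (GRCm38), and promoter windows from RefSeq (GRCm38.p6). Members, lists and tests were chosen with earlier results of these data known. All 35 members were named, and of each marker list the called genes or up to 4 with the highest mean, besides defining markers; Ikzf3, Ighd and Mzb1 were named after their values were seen. Cd3e was not analysed here. Python 3.11.15, pandas 2.3.3, numpy 2.4.6 and matplotlib 3.10.9 were used.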

Additional observations from a re-analysis of the deposited data

How the results depend on the processing

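The 7 genes called lower and 6 called higher over all genes became 21 lower with the replicate block and 99 lower and 49 higher with DESeq2, and with 1 library left out they ranged from 1 to 34 lower and from 5 to 23 higher. The 1 member called lower became 0 with a mean of at least 50, 5 with the replicate block (0.141% of all genes; Pou2af1, Vpreb3, Iglc3 and Igkc besides Fcrla), 6 with DESeq2 and from 0 to 9 with 1 library left out, while 0 members were called higher under any alternative. The median log2 fold change of the tested members lay between -3.52 and -1.91, and the count of members with every CD74-/- library below every WT library between 12 (mean of at least 50; 7.35% of all genes) and 21 (without CD74-/- replicate 1 or 3; 11.9% and 18.8% of all genes). The member windows with CAGGTG fell to 4 and those with ATGCAAAT to 1 in the shorter window. With 1 library left out the log2 fold change ranged across 0 for Rag1 (-1.64 to 0.90), Rag2 (-1.03 to 0.33), Cd79b (-0.44 to 0.25), Fcer2a (-1.90 to 0.44) and Ralgps2 (-0.47 to 0.23). That of Cr2 was -1.04 in limma, 0.0761 in edgeR and 0.0690 in DESeq2. The labels name no pairing, and deviations of libraries with the same number correlated at 0.1158, 0.0716 and 0.0193, so the replicate block is not a paired design. The causes of these changes were not tested. Precision is limited by 3 libraries per genotype, which differ among themselves in the same genes, and for Vpreb2, Fcer2a, Lef1 and Pax5 by few reads.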
